A study of Mus musculus with 12 samples.

Results

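The nuclei described here met a marker rule for dentate granule neurons in single-nucleus RNA sequencing (snRNA-seq) of the left hippocampus of female mice. A nucleus was a member if it had 500 to 10000 detected genes, at least 1 unique molecular identifier (UMI, a counted transcript) of Slc17a7 and of Prox1, at least 1 UMI of at least 2 of the 5 genes Dsp, C1ql2, Glis3, Trpc6 and Plekha2, no UMI of Gad1 or Gad2, and fewer than 2 UMIs of Mobp. The members were therefore chosen by the same counts that are described below, and the 7 positive genes of the rule are reported only as a check. Of 185643 deposited barcodes, 1907 were members. Granule markers outside the rule were high in the members of 9 of the 12 libraries, and the other 3 libraries stood apart. These markers were chosen with earlier results of these data known, so they are no independent test of the label.

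Granule neurons are the principal excitatory cells of the dentate gyrus. They receive cortical input from the perforant path and send it on through their mossy fibre axons to mossy cells and CA3 pyramidal neurons, and they are known for sparse firing and for being replaced in part throughout life by adult neurogenesis. Prox1, a homeobox transcription factor, sets and maintains their identity, C1ql2 and C1ql3 are secreted proteins of the mossy fibre synapse, and Calb1 encodes the calcium buffer calbindin, whose loss from granule cells is a known feature of Alzheimer's disease models with seizures.

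The 3xTg-AD mice carried mutant human APP and MAPT transgenes, driven by the neuronal Thy1 cassette, as well as a further knock-in allele, and the WT mice were littermates of the same mixed B6;129 line. Each of the 12 libraries came from 1 mouse, with 3 WT and 3 3xTg-AD females at 6 months and again at 12 months, so that p-values measure the spread between mice. The libraries are numbered 1 to 12, and values by library are given in the order WT 3, 7 and 11 and 3xTg-AD 1, 5 and 9 at 6 months, then WT 4, 8 and 12 and 3xTg-AD 2, 6 and 10 at 12 months. Levels are CPM, the UMIs of a gene scaled to all UMIs of the members of a library, and they compare 1 gene across libraries or nuclei, not genes with each other. Whole libraries held 79177051 to 128323908 UMIs, and 184956 nuclei were retained after filters on genes, mitochondrial UMIs and complexity.

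Members numbered 35, 210 and 64 in the 6-month WT libraries and 188, 269 and 285 in the 6-month 3xTg-AD libraries. At 12 months there were 257, 140 and 294 in WT and 7, 12 and 146 in 3xTg-AD. Their summed counts ranged from 80619 UMIs in library 2 to 2585425 in library 12, and the median member had 5806 to 11756 UMIs. No barcode of a member occurred among the members of a second library in any of the 66 pairs of libraries, while 29 to 107 barcodes of any kind were shared per pair.

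The members of 3xTg-AD libraries 2 and 6 at 12 months went against the granule label, and those of WT library 3 at 6 months did so in part. The 12 granule markers outside the rule summed to 3299 CPM in library 2, 3947 CPM in library 6 and 6012 CPM in library 3, against 7892 to 9190 CPM in the other 9. Calb1 had no count in library 2, which allows up to 37.2 CPM (3 counts), and stood at 18.4 CPM in library 6, against 95.3 to 136 CPM in the other 10 libraries. Npnt, which encodes the matrix protein nephronectin, was at 0 in both libraries 2 and 6, where 3 counts would be 37.2 and 18.4 CPM, and at 39.9 to 74.5 CPM elsewhere. Kcnq5, a potassium channel gene that was low in granule neurons, reached 1042 and 1186 CPM in libraries 2 and 6 and 79.5 to 218 CPM in the other 10. Markers of striatal neurons summed to 1290, 1100 and 902 CPM in the members of libraries 2, 6 and 3, and to 455 to 638 CPM in the others. Most of these sums was Pde10a, a phosphodiesterase gene that was also high in CA1-like nuclei (mean 1100 CPM) and in nuclei with CA3 or CA2 markers (1164 CPM), and the other 9 striatal markers summed to 149, 117 and 122 CPM in libraries 2, 6 and 3 and to 51.3 to 85.6 CPM in the other 9. Across 10348 genes, log2 levels of the members correlated with the 9 libraries other than 2, 3 and 6 at r of 0.681 to 0.723 for library 2, 0.767 to 0.812 for library 6 and 0.882 to 0.925 for library 3, and these 9 with each other at 0.916 to 0.979, where all libraries share chemistry and differ in depth (r is a description across genes). Library 2, with fewer than 10 members, entered no test of expression, and results that rest on libraries 3 or 6 are given with and without them.

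**Figure D1:**
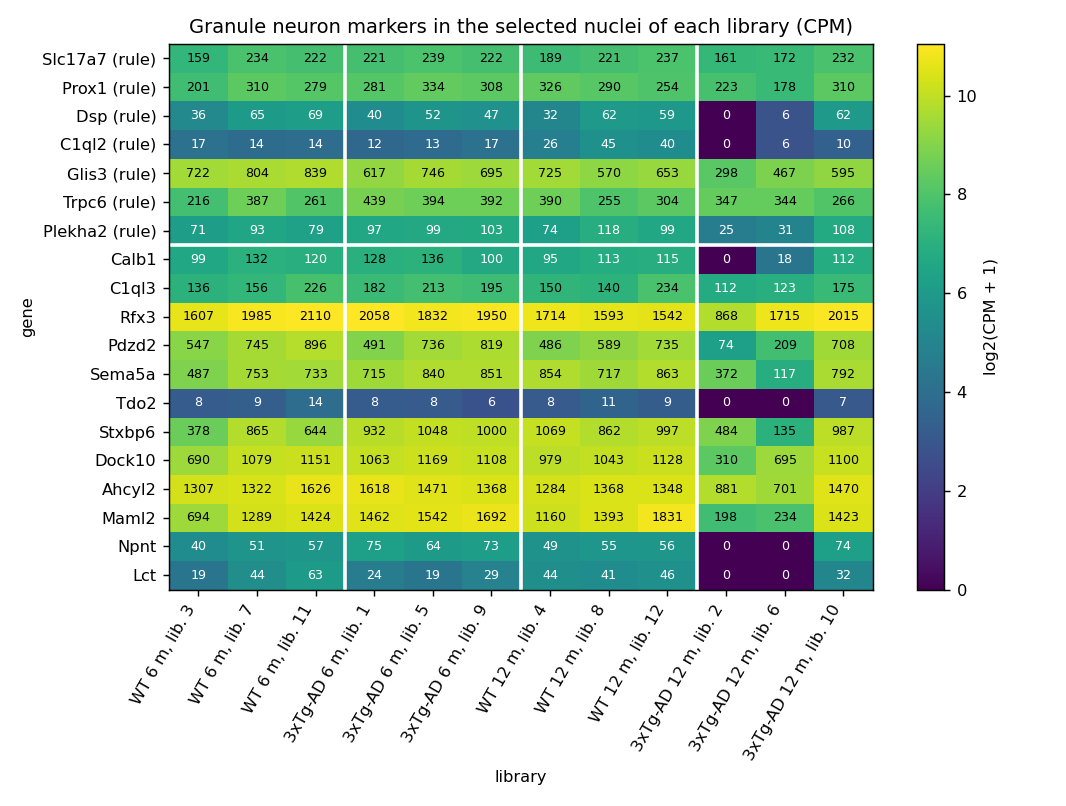
CPM of the 7 rule genes (above the white line) and of 12 granule markers outside the rule (below) in the members of each of the 12 libraries, coloured by log2(CPM + 1). The columns of 3xTg-AD libraries 2 and 6 at 12 months are darker for most markers outside the rule, with Npnt and Lct at 0, whereas 3xTg-AD library 10 resembled the WT libraries. Tdo2 was also at 0 in libraries 2 and 6, where 3 counts would be 37.2 and 18.4 CPM. Since Tdo2 had few counts in every library, nothing is read from these zeros.

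Over the nuclei of all 12 libraries together, the threshold of 2 marker genes fell where the population changed. With all other criteria met, 496 nuclei had 1 of the 5 genes, 847 had 2, 779 had 3, 259 had 4 and 22 had 5. Just outside the rule, with 1 gene, markers of granule neurons outside the rule summed to 3166 CPM and markers of thalamic and subcortical excitatory neurons to 3843 CPM. Just inside, with 2 genes, these sums were 8018 and 982 CPM. This did not hold in libraries 2 and 6, whose members had 3299 and 3947 CPM of the granule markers, near the sum just outside the rule.

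Genes that the rule did not use also set the members apart from the 12163 other Slc17a7-positive nuclei, which met the same limits on genes, Gad1, Gad2 and Mobp. All 12 granule markers outside the rule were higher in the members in 9 of 9 libraries with at least 50 members. This list was chosen with earlier results of these data known, so it is not independent of them. Maml2, a coactivator of Notch signalling, had a mean of 1469 CPM in members and 138 CPM in the other nuclei. The transcription factor gene Rfx3 was at 1867 and 271 CPM, Stxbp6, which encodes the SNARE regulator amisyn, at 934 and 119 CPM, and Calb1 at 117 and 41.5 CPM. Beyond this list, the leading genes included Stra6, a receptor for retinol-binding protein, at 108 against 6.1 CPM, the neurotrophin gene Ntf3 at 58.4 against 7.0 CPM, and the synaptic vesicle gene Synpr at 564 against 82.6 CPM. Since the nuclei were selected on their counts, these differences are a description, with no test.

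**Figure D2:**
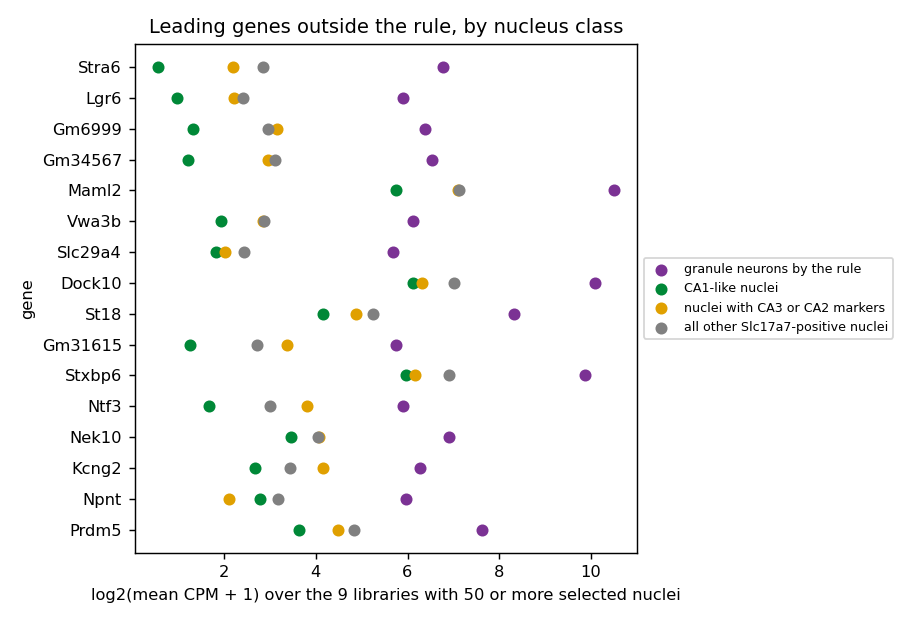
Mean level (log2 of CPM + 1, horizontal axis) of the 16 leading genes outside the rule in the granule neurons, in CA1-like nuclei, in nuclei with CA3 or CA2 markers and in all other Slc17a7-positive nuclei, over the 9 libraries with at least 50 members. The granule neurons lie to the right of the other classes for each of these genes.

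Genes at the other end were low in granule neurons. Sv2b, a synaptic vesicle gene, was at 20.4 CPM in members and 307 CPM in the other Slc17a7-positive nuclei, Tshz2, a zinc finger gene, at 42.7 and 570 CPM, and the muscarinic receptor gene Chrm3 at 66.7 and 771 CPM. All 8 thalamic and subcortical markers were lower in the members than in these other nuclei in 9 of 9 libraries, though for some this did not hold against CA1-like nuclei, where Prkcd stood at 6.4 CPM and Ntng1 at 330 CPM, against 12.5 and 849 CPM in members. The nuclei with CA3 or CA2 markers were a mixed class, with 220 CPM of Prkcd and 283 CPM of the thalamic gene Lef1, close to the 206 and 313 CPM of all other Slc17a7-positive nuclei, so they are not called CA3-like. In nuclei with mature oligodendrocyte markers, which had a median of 2810 UMIs against 7475 in members, Calb1 was found in 2.03% against 48.9% of members, C1ql3 in 2.65% against 69.3%, Maml2 in 15.6% against 97.6% and Lct in 0.120% against 22.2%. Other granule markers were common there too, with Dock10 in 99.3% against 99.4%, Stxbp6 in 72.3% against 95.3% and Rfx3 in 41.3% against 99.7%.

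Receptors and channels differed gene by gene within each family. Of 15838 genes with at least 1 CPM in either set of nuclei, 13.1% were higher in the members in 9 of 9 libraries and 20.8% lower in 9 of 9, which is the background for the counts that follow. Of 20 glutamate receptor genes, 6 were higher in the members in 9 of 9 libraries and 5 were lower in 9 of 9. The AMPA receptor subunit Gria1 was at 3116 CPM in members and 1410 CPM in the other Slc17a7-positive nuclei, the NMDA receptor subunit Grin2a at 3494 and 1844 CPM and the kainate receptor subunit Grik2 at 2125 and 1138 CPM, while Gria4 was at 238 and 843 CPM and Grik1 at 42.7 and 308 CPM. Of 27 ion channel genes, 8 were higher and 13 lower in 9 of 9 libraries. The T-type calcium channel Cacna1h was at 132 CPM in members and 31.8 CPM elsewhere, and the R-type channel Cacna1e at 1299 and 601 CPM. Kcnq5, an M-current channel, stood at 137 and 1163 CPM.

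For inhibition, 5 of 14 GABA receptor genes were higher and 5 lower in 9 of 9 libraries. Gabra2 was at 584 CPM in members and 245 CPM in the other nuclei, and Gabrg3 at 155 and 549 CPM. Among 19 measured genes of the mossy fibre synapse outside the rule, 8 were higher and 7 lower. Slc30a3, the transporter that loads zinc into synaptic vesicles, was at 53.5 and 21.1 CPM and Gpc4, a glypican, at 150 and 22.1 CPM, whereas the neurexin gene Nrxn3 was at 1903 and 4678 CPM. In the calcium group, Ryr2, a calcium release channel of the endoplasmic reticulum, was at 1837 and 709 CPM, Ppp3ca, the catalytic subunit of calcineurin, at 3282 and 1379 CPM, and the exchanger gene Slc8a1 at 298 and 1045 CPM.

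Activity genes varied in the members. Of 21 immediate-early and activity genes, 8 were lower than in the other Slc17a7-positive nuclei in 9 of 9 libraries, 2 were higher and 11 were mixed. Arc, a synaptic immediate-early gene, was at 2.9 CPM against 12.8 CPM, and it had a UMI in 1.31% of members and 1.90% of oligodendrocyte nuclei, which is not above background. Nr4a1, an immediate-early nuclear receptor, was at 6.4 against 51.2 CPM. Homer1, a scaffold gene of the postsynapse with an activity-induced short form, was found in 46.4% of members and 18.1% of oligodendrocyte nuclei. Its level was 111 CPM in members against 214 CPM in the other Slc17a7-positive nuclei. Bdnf, a neurotrophin, and Inhba, a subunit of activin, were the 2 that were higher, with 70.4 against 29.2 CPM and 29.8 against 13.5 CPM, and Bdnf had a UMI in 34.0% of members and 1.21% of oligodendrocyte nuclei. Of 11 genes of immature granule neurons and neurogenesis, 1 was higher, 5 were lower and 5 were mixed. Dcx, a microtubule protein of young neurons, had a UMI in 10.7% of members and 3.00% of oligodendrocyte nuclei. Its level was lower in members than in the other Slc17a7-positive nuclei (17.1 against 44.1 CPM). Sox11, a transcription factor of young neurons, was the 1 that was higher (25.5 against 17.8 CPM) and had a UMI in 17.4% of members and 1.34% of oligodendrocyte nuclei.

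Genes of the dorsal and ventral dentate gyrus varied between libraries. Trhr, the receptor of thyrotropin-releasing hormone and a ventral granule gene, was at 88.1, 12.1 and 16.3 CPM in WT and 16.7, 12.4 and 19.5 CPM in 3xTg-AD at 6 months, and at 11.3, 2.7 and 1.9 CPM in WT and 149, 43.0 and 5.0 CPM in 3xTg-AD at 12 months. The ventral gene Nr2f2, a nuclear receptor, followed the same libraries, with 44.1 CPM in library 3, 49.6 CPM in library 2, 30.7 CPM in library 6 and 1.55 to 8.15 CPM in the other 9. Lct, a dorsal gene that encodes lactase, was at 18.9 CPM in library 3, 0 in libraries 2 and 6 and 18.7 to 63.2 CPM in the others. Gsg1l, which stands beside Lct in the list, was lowest in library 3 at 48.2 CPM but highest in library 6 at 178 CPM, with 112 CPM in library 2 and 65.2 to 132 CPM in the others. Spata13 had no count in libraries 2 and 6 and was at 2.1 CPM in library 3, against 20.4 to 46.9 CPM in the other 9, and Tox3 was at 161, 264 and 115 CPM in libraries 2, 6 and 3 and at 23.2 to 110 CPM in the others. Libraries 2, 3 and 6 thus held the highest values of Trhr, Nr2f2 and Tox3 and library 3 a low value of Spata13, while Gsg1l did not follow this order. In libraries 2 and 6, Trhr rested on 12 and 7 counts and Nr2f2 on 4 and 5. The members of libraries 2 and 6 went against the granule label, so no position in the dentate gyrus is read from their values. For the zeros of Lct and Spata13, 3 counts would be 37.2 CPM in library 2, within the range of the other libraries, and 18.4 CPM in library 6, just below it. Whether the part of the hippocampus that was sampled differed between libraries was not tested.

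Shares here count the members, and those of libraries 2 and 6 went against the granule label. The share of members among retained nuclei was 0.289%, 1.31% and 0.405% in the 6-month WT libraries and 1.33%, 1.70% and 1.59% in the 6-month 3xTg-AD libraries. At 12 months it was 1.43%, 1.06% and 2.59% in WT and 0.0465%, 0.0764% and 0.737% in 3xTg-AD. All 3 3xTg-AD libraries lay above all 3 WT libraries at 6 months and below all 3 at 12 months. At 6 months this rested on library 1 at 1.33% against WT library 7 at 1.31%. Their order was reversed with at least 1 or at least 3 of the 5 marker genes, with thinned nuclei and as a share of Slc17a7-positive nuclei. For libraries 2 and 6, with 7 and 12 members, the 95% Wilson intervals of 0.0225% to 0.0959% and 0.0437% to 0.133% cover counting error only.

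Mean shares were 0.669% ± 0.561 in WT and 1.54% ± 0.192 in 3xTg-AD mice at 6 months, and 1.69% ± 0.80 and 0.287% ± 0.390 at 12 months (SD, n = 3 each). The genotype difference was 0.871 percentage points at 6 months and -1.40 points at 12 months, each with an exact two-sided permutation p = 0.1, the smallest that 3 against 3 libraries allow (adjusted p = 0.125 over 5 comparisons). From 6 to 12 months the share differed by 1.02 points in WT (exact p = 0.2, adjusted p = 0.2) and by -1.25 points in 3xTg-AD (exact p = 0.1, adjusted p = 0.125). The genotype difference itself changed between the ages by -2.28 points, with an exact permutation p = 0.005, the smallest of 400 relabellings, and an adjusted p = 0.025. It had already been seen in earlier work on these data, so the test is not independent. This call was lost under some alternatives, with adjusted p from 0.025 to 0.075 over all that were run. With at least 3 of the 5 marker genes required, which left 0 and 1 members in libraries 2 and 6, the change was -1.40 points (adjusted p = 0.05), and with every nucleus thinned to 2000 UMIs it was -0.350 points (adjusted p = 0.075). It was also lost without library 1, 2, 5, 6, 9 or 12, with the change between -2.38 and -1.83 points and the same sign each time.

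Some other measures of the libraries moved with the share and some did not. As a share of all Slc17a7-positive nuclei, members made up 9.97% ± 4.85 in WT and 22.3% ± 8.02 in 3xTg-AD at 6 months, and 16.9% ± 4.45 and 4.41% ± 6.32 at 12 months. At 12 months, CA1-like nuclei made up 0.477% to 0.818% of the 3xTg-AD and 1.08% to 1.56% of the WT libraries, so that they were lower with the members. There were 37.7 ± 45.7 members per 100 CA1-like nuclei in 3xTg-AD and 127 ± 41.9 in WT. The 3xTg-AD mean held 6.86 and 16 in libraries 2 and 6, whose members went against the granule label, and 90.1 in library 10. At 6 months these ratios were 250 ± 142 in 3xTg-AD and 126 ± 4.37 in WT. Nuclei with CA3 or CA2 markers did not follow the members at 12 months, with 1.46% ± 0.642 in 3xTg-AD and 1.18% ± 0.503 in WT. Striatal markers, of which Pde10a was also high in CA1-like nuclei, summed over all nuclei to 1979 and 1969 CPM in libraries 2 and 6. In WT library 11 the sum was 2366 CPM, and these were the 3 highest of the 12. WT library 3, with the third lowest share of members, had 1172 CPM. Outside the members and without Pde10a, libraries 2, 6 and 11 were again the highest, at 719, 734 and 952 CPM against 153 to 464 CPM in the others. The part of the dissection in the shares was not tested, and fewer granule neurons in the mouse and fewer granule neurons in the piece of tissue or the sort cannot be told apart.

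**Figure D3:**
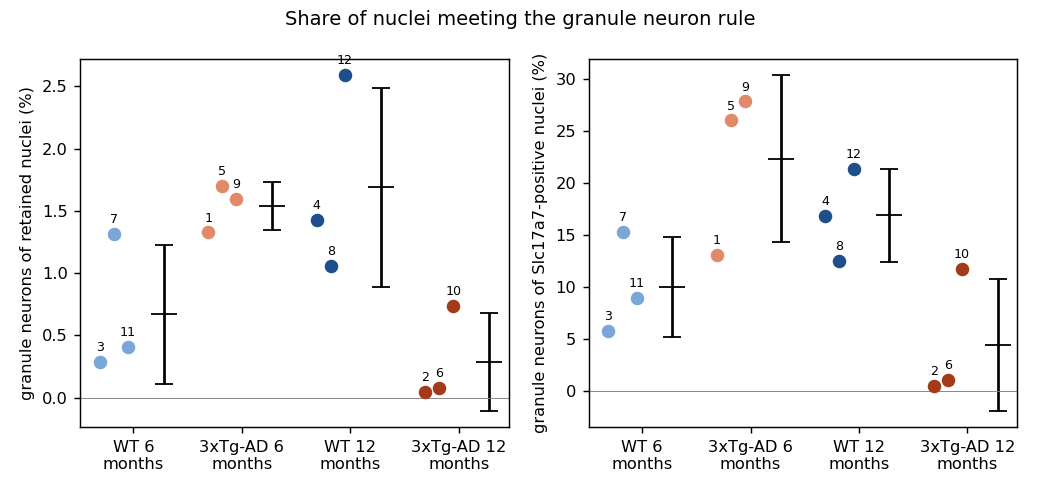
Members as a percent of retained nuclei (left) and of Slc17a7-positive nuclei (right) in each library, numbered, with mean and SD (n = 3) beside the points. At 6 months the 3 WT shares of retained nuclei lie at 0.289% to 1.31% and the 3xTg-AD shares at 1.33% to 1.70%, whereas at 12 months 3xTg-AD libraries 2 and 6 lie near 0. The members of libraries 2 and 6 went against the granule label.

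Expression was compared between 3xTg-AD and WT granule neurons at 6 months with counts summed per library, 3 against 3. Of 10548 genes tested, 23 passed (adjusted p under 0.05, with a log2 fold change beyond 0.2 either way), which is 0.218% of the genes, with 6 higher and 17 lower in 3xTg-AD, and 916 genes had an unadjusted p under 0.05. The genes with the smallest adjusted p included Lgr6, higher in 3xTg-AD, and the noncoding RNA Gm17167, Pdzrn4, Cfap54 and Hpse2, all lower. In each of the 23, the groups did not overlap, as in 1582 of all 10548 genes tested. All 23 also passed without WT library 3, when 72 genes passed, whereas 9, 9 and 5 passed without 3xTg-AD libraries 1, 5 and 9 and 35 without WT library 7.

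Lgr6, a receptor gene for R-spondins on the minus strand of chromosome 1 (chr1:134983301-135105276), was at 10.5, 7.3 and 2.0 CPM in 6-month WT and at 84.6, 111 and 101 CPM in 6-month 3xTg-AD granule neurons. The lowest 3xTg-AD library was thus far above the highest WT library, and the gene was 14.8-fold higher (log2 fold change 3.89 ± 0.28, SE, adjusted p = 1.5e-05). At 12 months the WT libraries had 34.7, 6.3 and 58.4 CPM, 3xTg-AD library 10 had 120 CPM, and libraries 2 and 6 had 12.4 and 24.6 CPM. Lgr6 was 1 of 3 genes by the naming rule that passed at 6 months under all 16 alternatives, with Gm17167 and Cfap54. It was among the leading genes of the class by its mean over 9 libraries (58.4 against 4.3 CPM), but that mean rested mostly on the 3xTg-AD libraries, and 6-month WT granule neurons had at most 10.5 CPM. In the other Slc17a7-positive nuclei it stood at 0.7, 1.3 and 1.4 CPM in WT and 6.5, 6.8 and 7.9 CPM in 3xTg-AD at 6 months.

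Gm17167 (chr4:42206998-42235313), a processed transcript without a known role, was nearly absent from 3xTg-AD granule neurons. At 6 months it was at 44.1, 52.0 and 59.1 CPM in WT and at 0.6, 0 and 0.4 CPM in 3xTg-AD, which are 136 counts of 2621469 UMIs against 2 of 6274211, a ratio of 163 with a 95% counting interval of 44.2 to 1357. At 12 months it was at 24.9, 57.6 and 33.7 CPM in WT and without a count in the 3xTg-AD libraries. There, 3 counts would be 37.2 CPM in library 2, which reaches into the WT range, 18.4 CPM in library 6 and 2.48 CPM in library 10, and the members of libraries 2 and 6 went against the granule label, so that the statement rests on library 10. Gm42743, a long noncoding RNA of chromosome 3, had the same form, with 8.4, 16.9 and 10.2 CPM in 6-month WT and no count in 3xTg-AD (adjusted p = 0.0044). Against a floor of 3 counts over the group it was 29.5-fold lower. The lower bound of the counting interval of 0 against 37 counts was 22.8-fold. Ccl27a, a chemokine gene on chromosome 4, was at 10.5, 11.5 and 16.3 CPM in WT and at 1.2, 1.0 and 2.0 CPM in 3xTg-AD. Its symbol belongs to 3 gene identifiers in the files, so that reads may be split among copies and its value is uncertain.

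Pdzrn4 (chr15:92396881-92771819), a PDZ and RING finger gene of the LNX family, was at 581, 378 and 485 CPM in WT and at 131, 93.8 and 94.1 CPM in 3xTg-AD at 6 months. It was 4.35-fold lower (log2 fold change -2.12 ± 0.17, adjusted p = 3.5e-05), and the 2 groups were far apart. At 12 months the WT libraries had 333, 217 and 188 CPM and 3xTg-AD library 10 had 68.7 CPM, but libraries 2 and 6, whose members went against the granule label, had 496 and 498 CPM. The call at 6 months was lost in 1 of 16 alternatives, the fit of all libraries together (adjusted p = 0.102). Cfap54, a gene of cilia and flagella, was at 101, 102 and 116 CPM in WT and 20.3, 30.1 and 25.1 CPM in 3xTg-AD (log2 fold change -2.00 ± 0.17, adjusted p = 5.9e-05). In the 12-month WT libraries it was at 97.6, 154 and 150 CPM, against 86.8, 92.2 and 29.8 CPM in 3xTg-AD libraries 2, 6 and 10. The values of libraries 2 and 6 are 7 and 15 counts, from members that went against the granule label. A lower level at 12 months thus rests on library 10.

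Hpse2, which encodes heparanase 2, was at 48.2, 16.9 and 24.4 CPM in WT and at 1.8, 0.5 and 0.4 CPM in 3xTg-AD at 6 months, 63 counts against 5 and a ratio of 30.2 with a counting interval of 12.3 to 96.1 (adjusted p = 0.0029). In 12-month WT mice it was at 0.5, 10.8 and 0.8 CPM, which overlaps the 6-month 3xTg-AD libraries, and in 12-month 3xTg-AD mice at 86.8, 0 and 0.8 CPM. The highest of the 12 values was that of library 2 and the next that of WT library 3, whose members went against the granule label in whole or in part. AC149090.1, a gene that the annotation used here does not place, was at 585, 729 and 856 CPM in WT and 241, 192 and 200 CPM in 3xTg-AD (log2 fold change -1.74 ± 0.14, adjusted p = 3.5e-05), and at 12 months the groups overlapped, with 833 CPM in library 10. The calls of Hpse2 and of Gm42743 were lost without library 9 (adjusted p = 0.0563 each) and that of AC149090.1 with all libraries in 1 fit (adjusted p = 0.102).

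Syt17, an atypical synaptotagmin, was at 149, 149 and 159 CPM in WT and 86.4, 72.7 and 78.6 CPM in 3xTg-AD (log2 fold change -0.90 ± 0.12, adjusted p = 0.0070). Cers4, a ceramide synthase, was at 130, 138 and 112 CPM against 60.2, 51.2 and 67.4 CPM (-1.06 ± 0.15, adjusted p = 0.0070). Bet1, a SNARE of transport from the endoplasmic reticulum to the Golgi, was at 37.8, 42.9 and 30.6 CPM against 11.3, 13.4 and 12.8 CPM (-1.57 ± 0.22, adjusted p = 0.0092). In each of these 3 genes the WT libraries lay above every 3xTg-AD library. The call of Syt17 was lost under 4 of 16 alternatives (adjusted p up to 0.326) and that of Cers4 under 5 of 16 (up to 0.0905).

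The remaining genes that were lower at 6 months, named after their values were seen since they fall outside the naming rule, were Dpp10, an auxiliary subunit of Kv4 potassium channels (log2 fold change -1.26), Klhl32 (-0.75), Pde1a, a phosphodiesterase stimulated by calmodulin (-1.34), Cntnap4, of the neurexin superfamily (-1.52), Prune2 (-0.97), Samd11 (-3.06) and the antisense gene 1700080N15Rik (-1.99), with adjusted p of 0.0132 to 0.0451. Cntnap4 and Dpp10 were the lowest of the 23 relative to all other retained nuclei, at 0.143 and 0.251 of the level there, and Dpp10 reached 2096 CPM in library 6. The part of free RNA from other nuclei in such values was not tested.

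Beside Lgr6, 5 genes were higher in 6-month 3xTg-AD granule neurons. Ston2 (chr12:91633009-91788387), which encodes the endocytic adaptor stonin 2, was at 14.7, 35.1 and 30.6 CPM in WT and 75.7, 80.4 and 75.8 CPM in 3xTg-AD, 2.69-fold higher (log2 fold change 1.43 ± 0.21, adjusted p = 0.0096). At 12 months it was at 32.4, 37.8 and 37.1 CPM in WT and at 24.8, 49.2 and 77.8 CPM in 3xTg-AD libraries 2, 6 and 10, so that library 2 lay below the WT range. The antisense RNA Gm15594 was at 23.1, 66.5 and 24.4 CPM against 128, 173 and 172 CPM (1.81 ± 0.27, adjusted p = 0.0119). Each of these calls was lost under 3 of 16 alternatives, with adjusted p up to 0.0958 for Ston2, which was lost without library 1, 5 or 9, and up to 0.134 for Gm15594.

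Lypd1, a membrane-anchored modulator of nicotinic receptors, was at 46.1, 41.7 and 75.4 CPM in WT against 104, 99.5 and 97.7 CPM in 3xTg-AD (1.02 ± 0.19, adjusted p = 0.0451). Btbd9, a BTB domain gene, was at 801, 1076 and 962 CPM against 1586, 1481 and 1474 CPM (0.72 ± 0.12, adjusted p = 0.0253). The 12-month WT libraries, at 1502, 1781 and 1470 CPM, overlapped the 6-month 3xTg-AD range. Between the genotypes at 12 months the log2 fold change had the opposite sign (-0.72 ± 0.43), and library 10, at 1474 CPM, lay inside the WT range. The call of Lypd1 was lost under 6 of 16 alternatives (adjusted p up to 0.272) and that of Btbd9 under 7 of 16 (adjusted p up to 0.713). Gm10503, an antisense gene on the same chromosome 17, had 10.5, 0.6 and 0 CPM in WT and 20.3, 23.9 and 25.1 CPM in 3xTg-AD, with 6 against 147 counts, a ratio of 10.2 and a counting interval of 4.59 to 28.3 (adjusted p = 0.0378). At 12 months it was at 16.4, 43.2 and 22.4 CPM in WT and 12.4, 0 and 19 CPM in 3xTg-AD, with a log2 fold change of -0.70 ± 0.56, and the call at 6 months was lost under 7 of 15 alternatives. How the counting treated strand was not given in the sources used here, so reads of these antisense genes and of the genes opposite them may not be told apart.

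**Figure D4:**
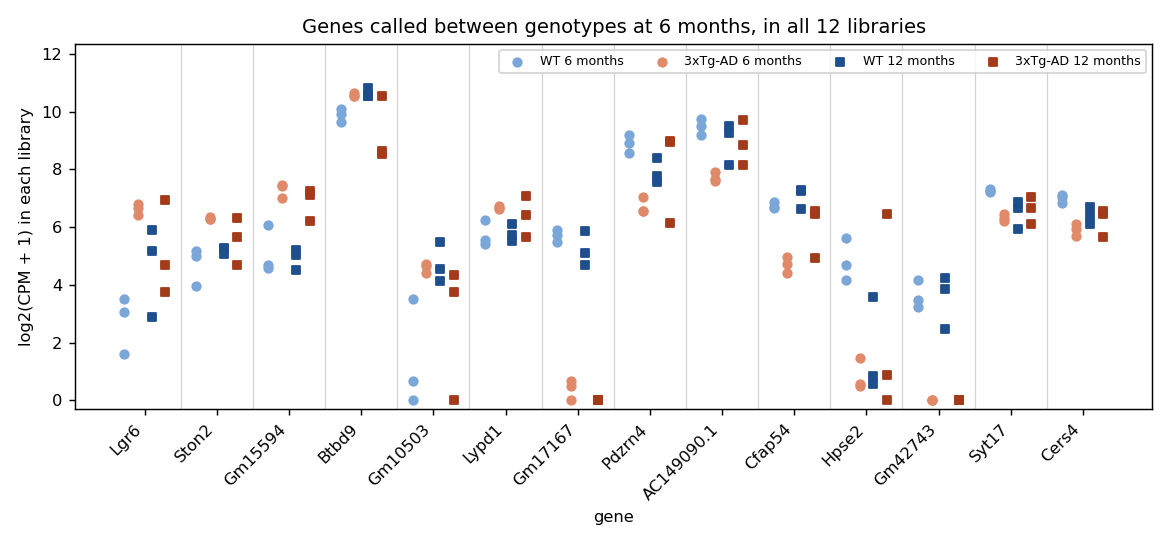
Levels (log2 of CPM + 1, vertical axis) in each of the 12 libraries of the genes called at 6 months and named by the rule, as circles at 6 and squares at 12 months, coloured by genotype and age. At 6 months WT and 3xTg-AD circles are apart for every gene shown, as the naming rule required. At 12 months 3xTg-AD library 10 lies beyond the WT range in the same direction for Lgr6, Ston2, Gm15594, Lypd1, Gm17167, Pdzrn4, Cfap54 and Gm42743.

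The same genotype comparison in the other Slc17a7-positive nuclei of these 6 libraries tested 15071 genes, of which 48 passed (10 higher and 38 lower, 0.318% of the genes). Beside the granule neurons, log2 fold changes in the other nuclei were -7.30 for Gm17167 (-6.97 in granule neurons), -2.00 for Cfap54 (-2.00), 1.52 for Ston2 (1.43) and 2.71 for Lgr6 (3.89). A test of the difference between the classes, chosen after the calls at 6 months were seen and with each library as a block, passed for 1 of 14131 genes (0.00708%), and 858 had an unadjusted p under 0.05. That gene was Pdzrn4, with a log2 fold change of -2.12 ± 0.17 in granule neurons and -0.70 ± 0.16 in the other nuclei (adjusted p = 0.21 there), a difference of -1.39 ± 0.14 (adjusted p = 0.0014). Without WT library 7 there were 39 such genes and without WT library 3 there were 3, Pdzrn4 among them each time.

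In the other nuclei Pdzrn4 was at 307, 211 and 283 CPM in WT and 181, 135 and 159 CPM in 3xTg-AD. Set against CA1-like nuclei alone the difference was -0.957 (adjusted p = 0.25) and against the mixed class with CA3 or CA2 markers -0.683 (adjusted p = 0.78), so that it did not pass there. For the other 22 genes called in granule neurons, adjusted p of the difference ranged from 0.123 to 1. The nearest were Cntnap4, at -1.52 ± 0.27 in granule neurons and 0.20 ± 0.11 in the other nuclei, and Prune2, at -0.97 ± 0.17 and 0.20 ± 0.10.

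**Figure D5:**
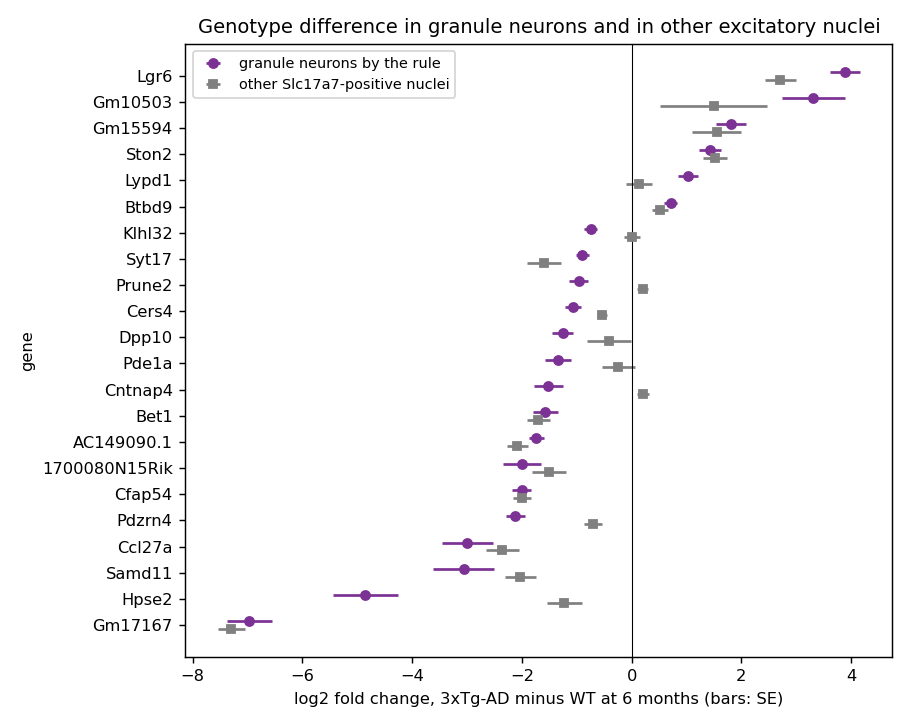
Log2 fold change of 3xTg-AD against WT at 6 months (horizontal axis, bars are SE) in granule neurons (circles) and in other Slc17a7-positive nuclei (squares), for the called genes that were tested in both. The 2 symbols lie close together for genes such as Cfap54 and Ston2 and apart for Pdzrn4, Cntnap4 and Prune2, of which only Pdzrn4 passed the test of the difference.

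At 12 months, 3xTg-AD libraries 6 and 10 were set against 3 WT libraries, and none of 10038 genes passed in edgeR (0%). There were 300 genes with an unadjusted p under 0.05, and DESeq2 also called 0. Of the genes called at 6 months, 21 were tested at 12 months, and in 9 the groups did not overlap, as in 20.7% of all genes tested there. The sign was the same in 16 of the 21. Nothing is read from this count, since the share over all genes is not given and the fit includes library 6. In 3xTg-AD library 10, the only one of the 3 with granule markers at WT levels, 13 of the 23 lay beyond the WT range in the direction seen at 6 months, as did 27.0% of all 10548 genes tested at 6 months in the direction of their own fold change. With library 10 alone against the 3 WT libraries (at least 50 members per library), where the lone library is assumed to vary like the WT group, 4 genes passed, which were Gm17167, Gm15594, Clmp and Cfap54. Without library 10, when library 6 alone stood for the genotype, 210 genes passed.

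With age, 2 of 10096 genes passed in WT granule neurons (0.0198%), both lower at 12 months, while 601 had an unadjusted p under 0.05. Tcerg1l, a paralogue of a transcription elongation regulator, was at 101, 56.8 and 59.1 CPM at 6 months and at 16.9, 24.3 and 17.8 CPM at 12 months, 3.57-fold lower (log2 fold change -1.84 ± 0.25, adjusted p = 0.0399). Lcorl, a transcription factor gene, was at 208, 168 and 183 CPM and then at 88.2, 63.0 and 75.0 CPM, 2.37-fold lower (-1.24 ± 0.18, adjusted p = 0.0399). The ages did not overlap for either. The call of Tcerg1l was lost under 8 of 16 alternatives (adjusted p up to 0.249) and that of Lcorl under 5 of 16 (up to 0.304). Without libraries under 50 members, which leaves out WT library 3, 6 genes passed, and none did with only 1 of the 5 marker genes required, or without WT library 7 or 11.

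Sv2c, a synaptic vesicle gene, was at 54.5, 32.7 and 22.4 CPM in WT at 6 months and at 119, 84.6 and 106 CPM at 12 months (log2 fold change 1.58 ± 0.25), but its adjusted p was 0.0924. In 3xTg-AD members, 0 of 10900 genes passed between the ages in edgeR (0%), with 432 at an unadjusted p under 0.05 and 0 in DESeq2. Library 6, whose members went against the granule label, was 1 of the 2 libraries at 12 months. Without library 6, library 10 alone stood for the age, and without library 10, library 6 alone did, so nothing is read from the counts of those fits. No gene of 12033 passed the test of whether the genotype difference changed with age (0%, 584 with an unadjusted p under 0.05, 0 in DESeq2). Without WT library 3 there was 1. Without library 6 or library 10, 1 library alone stood for 3xTg-AD at 12 months, and nothing is read from the counts of those fits.

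Over both ages, with age as a covariate and 11 libraries, a comparison added after the numbers of members were seen, 20 of 11413 genes passed (0.175%), 8 higher and 12 lower in 3xTg-AD, with 708 at an unadjusted p under 0.05. Without libraries 3 and 6 there were 44, without library 6 alone 42, and without 3xTg-AD library 1, 5 or 9 there were 7 each. This fit shares its 6-month libraries with the comparison above, and Gm17167 had a log2 fold change of -7.12 ± 0.45, Cfap54 of -1.89 ± 0.19, Gm15594 of 1.94 ± 0.22, Bet1 of -1.70 ± 0.20 and Ston2 of 1.24 ± 0.16 in it.

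Fyco1, an adaptor that moves autophagosomes along microtubules, was at 88.1, 74.4 and 139 CPM in 6-month WT and 176, 156 and 171 CPM in 6-month 3xTg-AD, and at 105, 81.0 and 78.9 CPM and 148 and 167 CPM (libraries 6 and 10) at 12 months (log2 fold change 0.84 ± 0.15, adjusted p = 0.0327). Every tested 3xTg-AD library was above every WT library, where library 6 had 24 counts. Library 2, which entered no test, had 6 counts in 80619 UMIs, a level in the WT range. Slc15a2, a peptide transporter, was at 10.5 to 22.4 CPM and 37.5 to 59.8 CPM at 6 months (1.29 ± 0.24, adjusted p = 0.0426). Nek10, a kinase gene that was also high in granule neurons (118 against 15.6 CPM in the other Slc17a7-positive nuclei), was higher by 0.74 ± 0.13 on the log2 scale, with 71.3 to 104 CPM in 6-month WT and 133 to 170 CPM in 6-month 3xTg-AD. These calls were lost under many alternatives, 9 of 21 for Fyco1 (adjusted p up to 0.694), 12 of 20 for Slc15a2 (up to 0.319) and 7 of 21 for Nek10. Angpt1, a ligand of the receptor Tie2, was lower by a log2 fold change of -1.45 ± 0.26 (adjusted p = 0.0327), but its groups overlapped across the ages, and it is named after its values were seen. Gm47283 also passed, but the annotation places it on chromosome Y, which female mice lack, so its reads may come from a copy elsewhere and its value is uncertain.

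The genes of the transgenes did not pass. App was at 449, 359 and 318 CPM in 6-month WT and at 362, 341 and 343 CPM in 6-month 3xTg-AD granule neurons (log2 fold change -0.06 ± 0.13), and Mapt at 340, 271 and 273 CPM against 245, 252 and 262 CPM (-0.16 ± 0.12). The reads were aligned to the mouse genome, so that reads of the human transgenes are counted only where they match mouse sequence. Thy1, whose regulatory sequence drives the transgenes, was at 46.1, 46.0 and 55.0 CPM against 62.0, 56.9 and 53.1 CPM at 6 months. At 12 months it was at 48.8, 43.2 and 52.2 CPM against 62.0, 73.8 and 83.6 CPM, and the groups did not overlap. Without library 2, the same held for 20.7% of all genes tested at 12 months. Thy1 had only 5 and 12 counts in libraries 2 and 6, whose members went against the granule label. Its log2 fold change was 0.29 ± 0.16 at 6 months, 0.73 ± 0.22 at 12 months (adjusted p = 1.0) and 0.48 ± 0.13 over both ages (adjusted p = 0.30).

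With 0.218% of all genes called at 6 months, gene lists of the sizes described here would rarely hold a call, so that nothing is read from their counts of called genes, and their values are given. At 6 months all 12 granule markers outside the rule were tested and 0 passed, with a median log2 fold change of 0.18 against -0.01 over all genes, and Npnt had the smallest adjusted p of the named markers (39.9, 50.8 and 57.0 CPM in WT against 74.5, 63.6 and 72.6 CPM in 3xTg-AD, 0.54 ± 0.16, adjusted p = 0.33). Calb1 was at 98.6, 132 and 120 CPM in WT and 128, 136 and 99.7 CPM in 3xTg-AD, which overlap. Medians were 0.03 for 20 glutamate receptors, -0.02 for 13 tested GABA receptors, 0.01 for 26 ion channels, 0.12 for 16 calcium genes and 0.07 for 20 genes of the mossy fibre synapse. The median was -0.20 for 9 tested activity genes, -0.04 for 23 tested genes of APP processing and tau kinases and -0.05 for 27 tested Alzheimer GWAS genes. No gene of these lists passed at 6 months.

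At 12 months the medians were -0.31 for the 12 granule markers outside the rule, which include the low values of library 6, 0.02 for the glutamate receptors and -0.59 for 10 activity genes. Tgfbr1, a receptor of TGF-beta that is listed here as a microglial marker, was lower over both ages (log2 fold change -0.76 ± 0.14, adjusted p = 0.0403), with 50.3, 55.6 and 61.1 CPM in WT and 30.4, 29.7 and 30.7 CPM in 3xTg-AD at 6 months, but 28.2, 26.1 and 31.3 CPM against 12.3 and 20.7 CPM (libraries 6 and 10) at 12 months, so that the genotypes overlapped across ages. Library 2, which entered no test, had 86.8 CPM (7 counts), above every WT library. The call of Tgfbr1 was lost under 11 of 20 alternatives (adjusted p up to 0.694). The other 6 microglial markers together were at 42.8 to 65.0 CPM in 6-month WT and 51.9 to 67.0 CPM in 6-month 3xTg-AD members, which overlap.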

How the data were processed

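Nuclei of the left hippocampus were sorted and profiled with 10x Chromium 3ʹ chemistry. The authors aligned the reads to mm10 with Cell Ranger 6.1.1 and deposited raw UMI counts per gene and nucleus, before their removal of ambient RNA, their filters and their clustering, none of which were applied to these values. Members and gene lists were chosen with earlier results of these data known. Nuclei were retained with 500 to 10000 genes, no more than 5% of UMIs mitochondrial, and a complexity (log10 genes over log10 UMIs) above 0.8. Groups follow the labels. No doublet caller was run. An alternative left out members with at least 3 UMIs of glial or inhibitory markers or over 3 times the median UMIs.

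Counts of members were summed per library (at least 10 members, which leaves out library 2) and tested with the quasi-likelihood test of edgeR 4.0.16 (glmQLFit, TMM, filterByExpr, two-sided, Benjamini-Hochberg over all tested genes). Calls needed an adjusted p under 0.05 and, except for the interaction and the class difference, a log2 fold change beyond 0.2 either way, as in the study. Shares were compared with exact permutation tests over libraries. Named were, per comparison, up to 8 called genes in each direction whose groups did not overlap, with the smallest adjusted p, every called member of the 28 lists, the granule markers outside the rule and the transgene genes. Some genes of the lists are not reported here. CA1-like nuclei and nuclei with CA3 or CA2 markers were Slc17a7-positive nuclei without Prox1 and with at least 2 markers of their own list and fewer than 2 of the other. DESeq2 1.42.0, RLE normalization, no filter, all libraries in 1 fit, 1 or 3 of 5 marker genes, 50 members per library, thinned counts, nuclei thinned to 2000 UMIs, a limit on genes low in members and each library left out were the alternatives. The edgeR fits were also run on simulated counts, and the outcome is not reported here. Positions are from GENCODE vM21 on GRCm38, in which 352 of 353 genes were found. Intervals and floors (3 counts) cover counting error only.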

Additional observations from a re-analysis of the deposited data

Results flagged for a closer look

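The change of the genotype difference in the share of members between 6 and 12 months, -2.28 percentage points (exact permutation p = 0.005, adjusted p = 0.025), was picked out because the difference between the ages was itself tested. It had already been seen in earlier work on these data, so the test is not independent. Every 3xTg-AD library lay above every WT library at 6 months and below at 12 months. At 6 months, library 1 fell below WT library 7 with at least 1 or at least 3 of the 5 marker genes and with thinned nuclei. It also did so as a share of Slc17a7-positive nuclei (13.1% against 15.3%). The call was lost without library 1, 2, 5, 6, 9 or 12, with at least 1 or at least 3 of the 5 marker genes, with thinned nuclei and as a share of Slc17a7-positive nuclei, with adjusted p up to 0.075. Members of libraries 2, 3 and 6 also had the lowest sums of granule markers outside the rule, and libraries 2 and 6 were 2 of the 3 libraries with the highest sums of striatal markers over all nuclei, and outside the members also without Pde10a. Their part in the change was not tested.

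Pdzrn4 was picked out because its genotype difference at 6 months differed between granule neurons and the other Slc17a7-positive nuclei, by -1.39 on the log2 scale (adjusted p = 0.0014). It passed with each of the 6 libraries left out in turn, with adjusted p up to 0.0386, but not against CA1-like nuclei or nuclei with CA3 or CA2 markers alone. Its genotype call in granule neurons was lost when all libraries were fitted together (adjusted p = 0.102).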

How the results depend on the processing

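None of the share differences, or of the 32 named gene results, changed direction under the alternatives that were run for them. The change of the genotype difference in the share with age kept its sign but not its adjusted p with at least 1 (-2.47 points) or at least 3 (-1.40) of the 5 marker genes, as a share of Slc17a7-positive nuclei (-24.8), with nuclei thinned to 2000 UMIs (-0.350), and for 6 of 12 libraries left out, with -2.60 to -1.83 points over all 12. With 1 library left out, the genotype difference in the share was 0.681 to 1.19 points at 6 months and -1.72 to -0.955 at 12 months, and the age difference 0.572 to 1.34 in WT and -1.48 to -1.13 in 3xTg-AD.

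Counts of called genes depended on the processing, and except for alternatives that use fewer samples or genes the cause was not tested. Without a filter on low counts there were 227 at 6 months, 66 at 12 months, 130 with age in WT, 50 with age in 3xTg-AD, 102 for the interaction, 140 over both ages and 144 for the class difference. DESeq2 called 50 at 6 months, 11 with age in WT and 31 over both ages. All libraries in 1 fit gave 10, 1 and 1 at 6 months, 12 months and with age in WT. With at least 3 of 5 marker genes there were 49, 6, 24, 9, 5 and 33 in the same order as without a filter, and with at least 1 of 5 there were 0 with age in WT and 6 over both ages. At least 50 members per library gave 72, 4, 6, 6, 3 and 44. Leaving out WT library 3 and 3xTg-AD library 6 gave 3 for the interaction and 44 over both ages. Counts thinned to the smallest library gave 14 at 6 months, 1 with age in WT and 3 over both ages. A limit on genes low in members gave 43 at 6 months and 4 with age in WT, and without possible doublets there was 1 with age in WT.

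With 1 library left out, calls numbered 5 to 72 at 6 months (72 without WT library 3), 0 to 210 at 12 months, 0 to 6 and 0 to 485 with age in WT and 3xTg-AD, 0 to 236 for the interaction, 7 to 42 over both ages and 1 to 39 for the class difference (39 without WT library 7). Of 576 values of 32 named gene results under the alternatives, 433 stayed called and 143 kept their direction only. The 12-month comparison rested on 2 3xTg-AD libraries, 1 with 12 members, against 3 WT libraries. No paired analysis was possible because no library number occurs in more than 1 group.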
